A study of Mus musculus with 12 samples.

Results

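The experiment asked what an anti-CD86 antibody adds to the response of resting B cells that are already stimulated through Toll-like receptor 2 (TLR2). It is made of 4 of the 12 arrays of the series: 2 arrays of cells given the TLR2 ligand Pam2CSK4 together with anti-CD86, called TLR2.CD86 here, and 2 arrays of cells given Pam2CSK4 only. The members were chosen by their labels, not by a measured value. Resting B cells were taken from the spleens of BALB/c mice of 6 weeks by removal of cells carrying CD43, and were cultured for 4 h before RNA was taken. The labels call the mice female. Unstimulated cells (2 arrays) and cells given anti-CD86 alone (2 arrays) serve below as the setting without Pam2CSK4. The antibody was cross-linked with streptavidin, and the control cells were given no antibody by their labels. Engagement of CD86 and the presence of the antibody complex therefore cannot be told apart. An isotype control was not analysed here. The study calls the arrays biological replicates, but no label names separate mice or cultures, so p-values measure the spread between these arrays only.

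TLR2 is a receptor of innate immunity that binds bacterial lipoproteins, and Pam2CSK4 is a synthetic diacylated lipopeptide that it recognises together with TLR6. Its signal runs through the adaptor MyD88 to NF-kB and the MAP kinases. CD86 (B7-2) is best known as a ligand on antigen-presenting cells for CD28 and CTLA-4 of T cells. It also has a cytoplasmic tail, and antibodies that bind it have been used to ask whether it signals into the B cell itself.

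Each array is a 1-colour Agilent design of 60-base probes. A level here is the log2 signal of a probe minus the 75th percentile of its array, and a difference is TLR2.CD86 minus Pam2CSK4 on that log2 scale. The arrays lay on 2 slides, and each slide held 1 array of each of the conditions compared, so pairs of values with Pam2CSK4, TLR2.CD86 or anti-CD86 are given below as slide 1 and slide 2. Both unstimulated arrays lay on slide 1. Between 46.6% and 60.6% of the spots of an array were well above background. The groups compared did not overlap for 30.9% of all probes tested and for 30.4% of genes. A gene stands by the brightest tested probe under its name on the array, and "called" means an adjusted p under 0.05 in limma over all 31599 probes tested. Levels of different probes are not comparable with each other.

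Of the 31599 probes, 3462 were called, 1803 higher (5.71%) and 1659 lower (5.25%) in TLR2.CD86. Most differences were small. The median size among called probes was 0.39, and 136 probes differed by 2-fold or more, 89 of them higher and 47 lower. Every called probe had the same sign on both slides, which held for 73.0% of all probes tested. The same arrays gave the calls, so this agreement is not separate support for them. Among the 11450 genes with a symbol, 1407 (12.3%) were called, 404 higher (3.53%) and 1003 lower (8.76%), and the median difference was -0.058. The number of calls rested on the fit. It was 20 without the slide term, 73 after scaling to the array median, and between 87 and 138 when any 1 of the 4 arrays was left out. With the 4 arrays alone it was 0, with 7613 probes at an unadjusted p under 0.05. Scaling to the array median also moved the median of all probes to -0.093. The calls below describe the fit over 12 arrays. Among called genes named by rule, leaving out 1 of the 4 arrays moved the difference by more than 1.5 times for Cdkn2c, Ldlrad3 and Matn4. Of the 519 called genes with 2 or more tested probes, the second brightest probe had the same sign in 383 (73.8%, against 61.0% of all genes with 2 or more probes). It was itself called with that sign in 121 and with the opposite sign in 15.

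The B cell identity of the samples was checked first. All 12 B cell markers, among them Cd79a, Cd22, Pax5 and Ms4a1, were well above background on the 4 arrays, and their median difference was 0.12 with 4 called higher, against 3.53% of all genes, and none lower. Markers of other cells were also present. Against 8.76% of all genes called lower, 6 of 13 myeloid markers were called lower and none higher, with a median of -0.24, and of 7 dendritic cell markers 4 were called lower, with a median of -0.25. The dendritic cell median was -0.56 on slide 1 and -0.32 on slide 2, and between -0.59 and -0.23 over the alternatives. NK cell markers (3 of 9 lower) and plasma cell markers (2 of 6 lower) had medians of -0.24 and -0.26, and T cell markers (2 of 12 lower) a median of -0.087. The T cell median was -0.0063 on slide 1 and -0.19 on slide 2. Over the alternatives it ranged from -0.21 to -0.039, and the plasma cell median from -0.46 to -0.19. Of 5 red cell markers tested 1 was called lower, with a median of 0.13. Fewer cells of a type and less RNA per cell cannot be told apart in these bulk samples. The part of such cells in the differences below was not tested.

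Among the called genes named here, the largest fall was in Rab5c, which encodes a small GTPase of early endosomes. The start of its probe is shown because a single probe carries this result. The first 30 of its 60 bases, read 5′ to 3′, are given below.
Rab5c: cctctggctctgagccctgttctgaccaaa

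Rab5c stood at 4.48 and 4.24 with Pam2CSK4 and at 2.69 and 2.44 in TLR2.CD86. Both TLR2.CD86 arrays lay far below both Pam2CSK4 arrays, and below the unstimulated arrays at 3.46 and 3.47 too. The difference was -1.80 (SE 0.057, adjusted p = 0.000147), a 3.47-fold lower signal. It passed the threshold in 14 of 15 alternative analyses, more often than any other named gene. Anti-CD86 alone left Rab5c at 3.31 and 3.01, a difference of -0.16 from unstimulated cells. The difference of these differences was -1.64 (adjusted p = 0.00401), so the fall was larger with Pam2CSK4 than without it.

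The other Rab and endocytosis genes went in both directions. Of 36 tested, 3 were called higher and 4 lower, against 3.53% and 8.76% of all genes, and the median was -0.018. The lower ones beside Rab5c were Rab4a, a GTPase of recycling endosomes (-0.48 (SE 0.065, adjusted p = 0.0129)), Rabgef1, an exchange factor for Rab5 (-0.35 (SE 0.050, adjusted p = 0.0141)), and Eps15, an endocytic adaptor (-0.29 (SE 0.063, adjusted p = 0.0362)). Eea1, the early endosome tether that binds active Rab5, rose by 0.37 (SE 0.081, adjusted p = 0.0383), but the other 3 Eea1 probes differed by between -0.28 and -0.027. Ap2a2 and Itsn2 rose by 0.28 and 0.27. The close relatives were not called. Rab5a differed by -0.17 (SE 0.067, adjusted p = 0.148) and Rab5b by 0.66 (SE 0.23, adjusted p = 0.125). Pacsin2, another endocytosis gene, was at -1.57 and -1.63 with Pam2CSK4 and -1.47 and -1.57 in TLR2.CD86, which overlap (0.077 (SE 0.12, adjusted p = 0.731)).

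**Figure D1:**
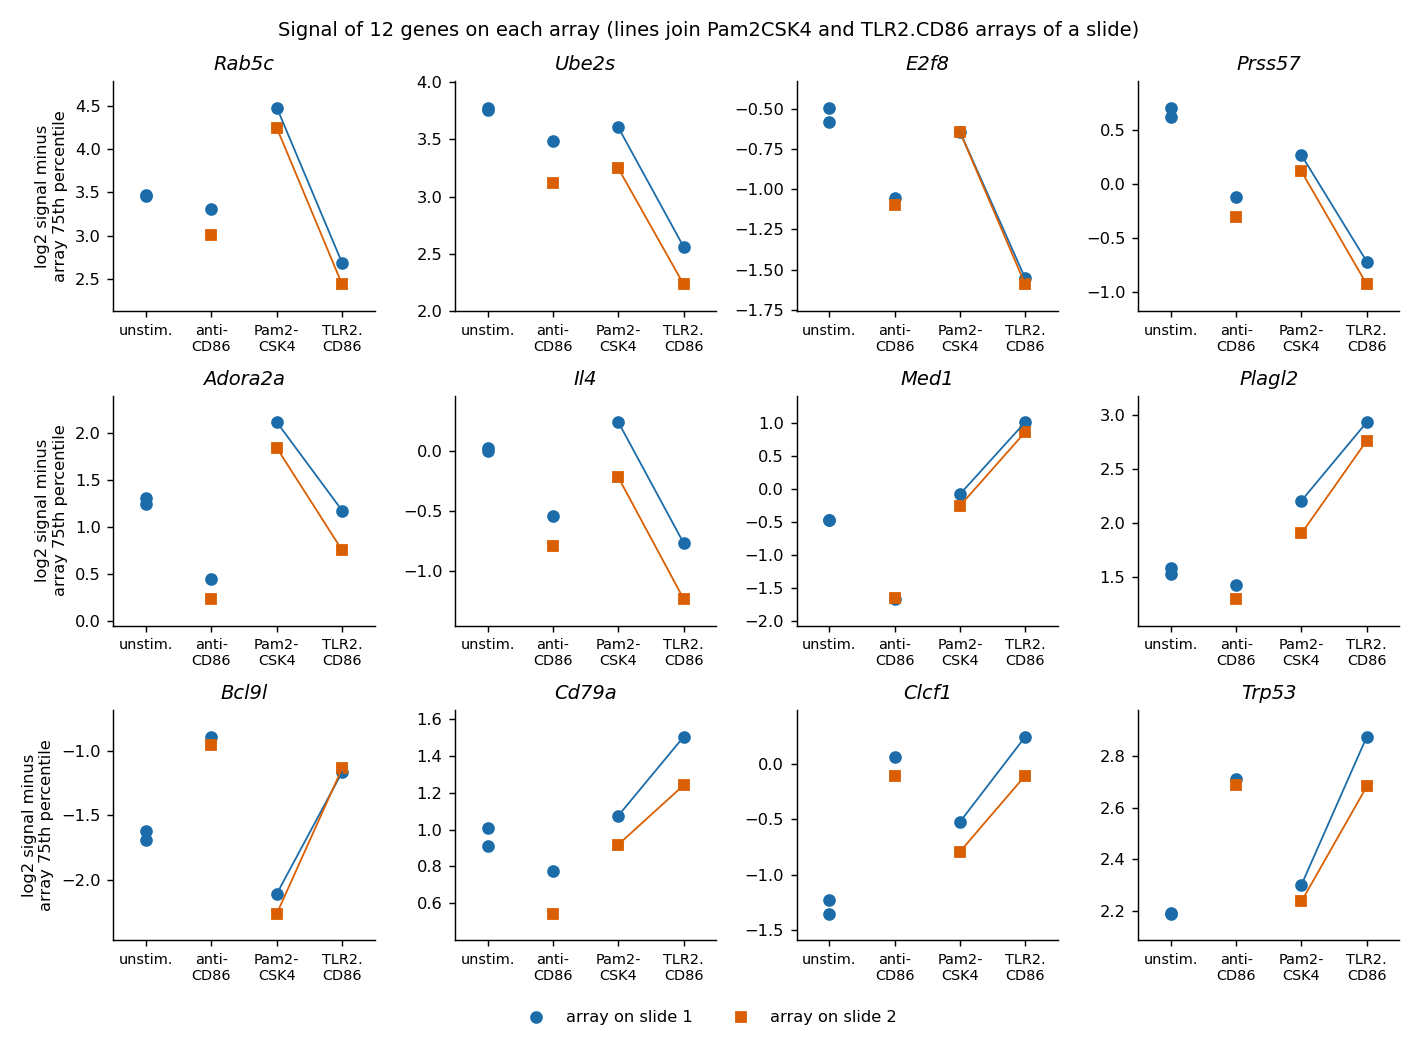
Levels of 12 genes on each array (log2 signal minus the array 75th percentile) in unstimulated cells, anti-CD86, Pam2CSK4 and TLR2.CD86, with circles for slide 1, squares for slide 2 and lines joining the compared arrays of a slide. Rab5c drops from 4.48 and 4.24 to 2.69 and 2.44, while the TLR2.CD86 arrays are the highest shown for Med1 and Plagl2.

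Genes of cell division held many lower calls. This list of mitosis and replication genes was drawn up after results were seen, so its count is a description. Of its 39 tested members 16 were called lower and none higher, against 8.76% of all genes, and 35 had negative differences on both slides, against 49.1% of all genes. Its median was -0.33, or -0.35 and -0.31 on the slides, and stayed between -0.42 and -0.25 in all alternatives. The summed signal of the list was 176 and 154 with Pam2CSK4 and 147 and 133 in TLR2.CD86, in units of each array's 75th percentile.

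Ube2s, which elongates ubiquitin chains for the anaphase-promoting complex, fell from 3.60 and 3.25 to 2.56 and 2.23. The groups did not overlap, and the difference was -1.03 (SE 0.061, adjusted p = 0.00208). E2f8, an atypical E2F repressor that is itself induced in S phase, was at -0.64 and -0.64 with Pam2CSK4 and at -1.55 and -1.59 in TLR2.CD86. Its arrays were nearly equal within each condition, and its difference of -0.93 (SE 0.057, adjusted p = 0.00234) passed the threshold in 13 of 15 alternatives. Kif2c, a kinesin that corrects spindle attachment, fell by 0.91 (SE 0.15, adjusted p = 0.0183). Nusap1, a spindle microtubule binder, fell by 0.70 (SE 0.065, adjusted p = 0.00732). The smallest differences over the alternatives were -0.37 for Kif2c and -0.60 for E2f8. Fits lacking 1 array kept Kif2c between -0.99 and -0.83. The proliferation marker Mki67 fell from 3.96 and 3.71 to 3.53 and 3.37, a difference of -0.39 (SE 0.062, adjusted p = 0.0178). Others called lower included Ccna2 (cyclin A2, -0.60), Uhrf1, which couples replication to DNA methylation (-0.53), Aurka (-0.36) and the activator of anaphase Cdc20 (-0.30). Several core members were not called. Cdk1 differed by -0.43 (SE 0.14, adjusted p = 0.101), Ccnb1 by -0.25 (SE 0.078, adjusted p = 0.0924) and Top2a by -0.043 (SE 0.087, adjusted p = 0.808).

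Promoters of this list are shown because mitotic genes are classically controlled through a short element, the cell cycle genes homology region (CHR). The letters TTTGAA were searched on both strands of the RefSeq promoter windows (GRCm38.p6, from 250 bases before to 50 after each start). They stood in 21 of 31 list genes found there (67.7%) and in 5466 of 27025 genes overall (20.2%). Of the 16 members called lower 8 had a match. Kif2c, E2f8 and Cdc20 are among these, while Ccnb2 has a match and was not called. In the windows below, each read on its gene's strand, capitals mark the match.
Kif2c, chr4:117178835-117178910 (minus strand): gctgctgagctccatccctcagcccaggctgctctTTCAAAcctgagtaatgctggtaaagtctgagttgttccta
E2f8, chr7:48881597-48881651 (minus strand): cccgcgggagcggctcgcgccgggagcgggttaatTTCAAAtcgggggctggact
Cdc20, chr4:118437344-118437396 (minus strand): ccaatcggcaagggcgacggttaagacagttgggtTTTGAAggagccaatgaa
Ccnb2, chr9:70421681-70421756 (minus strand): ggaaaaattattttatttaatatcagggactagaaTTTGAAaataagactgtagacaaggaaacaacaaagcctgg

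Of 26 G1 cyclins, kinases and licensing factors, which begin the cycle, 4 were called lower and none higher, against 8.76% of all genes called lower, with a median of -0.15. These were Ccne1 (-0.27), Mcm4 of the replicative helicase (-0.32) and the inhibitors Cdkn1a (-0.47) and Cdkn2c (-0.50, and between -0.72 and -0.28 when 1 array was left out). Ccne2 was not called, at 2.75 and -3.20 with Pam2CSK4 and -3.24 and -3.43 in TLR2.CD86 (-3.10 (SE 1.41, adjusted p = 0.209)), where 1 Pam2CSK4 array stands far above the others. Several nucleotide synthesis genes were called lower. Tyms, thymidylate synthase, fell by 0.62 (SE 0.085, adjusted p = 0.0135), and the ribonucleotide reductase subunits Rrm2 and Rrm1 had differences of -0.52 and -0.28. Myc itself was at 5.96 and 5.67 with Pam2CSK4 and 5.63 and 5.28 in TLR2.CD86, above 4.95 and 5.02 in unstimulated cells. Its level in TLR2.CD86 was lower than with Pam2CSK4 (-0.36 (SE 0.067, adjusted p = 0.0249)) without overlap.

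Chaperones and secretion factors of the endoplasmic reticulum (ER) had the highest share of lower calls among the 27 pathway lists. The unfolded protein response (UPR) adjusts ER folding capacity, and its targets are high in cells that prepare for antibody secretion. Of 23 UPR and secretion genes 9 were called lower and none higher, against 8.76% of all genes. The median was -0.21, with -0.23 and -0.21 on the slides, and 19 had negative differences on both slides. Summed signal was 688 and 583 with Pam2CSK4 and 579 and 492 in TLR2.CD86. Hsp90b1, the ER chaperone GRP94, was at 6.66 and 6.44 with Pam2CSK4 and at 6.32 and 6.03 in TLR2.CD86, with no overlap and a difference of -0.38 (SE 0.057, adjusted p = 0.016). Its other probe, also bright, differed by 0.14 (SE 0.15, adjusted p = 0.597), so the probes disagree. The disulphide isomerase Pdia4 fell by 0.60 (SE 0.065, adjusted p = 0.00947). Sec24d of the COPII coat, Sec61b of the translocon and the chaperone partner Sdf2l1 had differences of -0.53, -0.37 and -0.52. Edem1, Dnajb9, Canx (calnexin) and Pdia6 had differences between -0.23 and -0.32. The regulators themselves were not called. Xbp1 stood at 2.78 and 2.43 and 2.70 and 2.41 (difference -0.047 (SE 0.053, adjusted p = 0.627)), Ddit3 differed by 0.054 (SE 0.053, adjusted p = 0.572), and Hspa5 (BiP) by -0.21 (SE 0.078, adjusted p = 0.139).

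A second list of ER quality control and N-glycosylation genes, drawn up after results were seen, had 8 of 34 lower and 2 higher, against 8.76% and 3.53% of all genes, with a median of -0.17. Derl3 and Stt3a had differences of -0.46 and -0.33, and Sec61g, Spcs3, Ssr1, Ddost, Rpn2 and Ppib fell as well. Uggt1, the glucosyltransferase that senses misfolded glycoproteins, rose by 0.52 (SE 0.081, adjusted p = 0.0171), and the signal recognition particle receptor Srpr by 0.32 (SE 0.073, adjusted p = 0.0405). Sequence windows are given because some ER chaperone genes carry a known control element. The ER stress response element (ERSE), searched on both strands as CCAAT and CCACG with a gap of 9 bases of any kind between them, stood in the RefSeq promoter windows of 37 of 27025 genes overall (0.137%), of 7 of 20 UPR list genes found there and of 3 of 28 of the second list. Among genes called lower, Hsp90b1, Canx, Pdia6 and Derl3 had it, while Hspa5, Calr, Creld2, Dnajc3, Ero1b and Syvn1 had it and were not called. A match is only a description of the letters. Capitals mark it below, on the gene's strand of GRCm38.p6.
Hsp90b1, chr10:86705603-86705691 (minus strand): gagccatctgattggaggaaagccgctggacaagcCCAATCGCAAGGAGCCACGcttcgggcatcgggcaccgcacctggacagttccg
Canx, chr11:50325765-50325853 (minus strand): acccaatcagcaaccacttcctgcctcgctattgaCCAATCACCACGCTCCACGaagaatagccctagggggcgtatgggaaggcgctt
Pdia6, chr12:17266456-17266544 (plus strand): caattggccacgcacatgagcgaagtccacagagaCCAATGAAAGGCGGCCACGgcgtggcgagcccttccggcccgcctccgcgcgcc
Derl3, chr10:75893207-75893295 (plus strand, match on the opposite strand): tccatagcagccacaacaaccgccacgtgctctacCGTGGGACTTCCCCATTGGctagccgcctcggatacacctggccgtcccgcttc

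Of the 6 plasma cell markers 2 were called lower, against 8.76% of all genes. These were Tnfrsf17 and Derl3, and Derl3 is also in the second ER list. Tnfrsf17, the BCMA receptor of plasma cells, fell from 0.73 and 0.45 to 0.13 and -0.29 (-0.67 (SE 0.085, adjusted p = 0.0117)). The summed signal of the 6 plasma cell markers was 228 and 201 with Pam2CSK4 and 219 and 189 in TLR2.CD86. Its part in the ER differences was not tested.

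Of 30 oxidative phosphorylation subunits 7 were called lower and none higher, against 8.76% of all genes called lower, and 26 had negative differences on both slides, against 49.1% of all genes. Their median was -0.18. The complex I subunit Ndufa9 fell from 4.49 and 4.13 to 4.12 and 3.71 (-0.39 (SE 0.060, adjusted p = 0.0165)). Ndufa4, Ndufb3, Ndufb8 and Ndufv1 had differences between -0.23 and -0.35, Sdhc of complex II fell by 0.36, and Cox5b of cytochrome oxidase fell by 0.21. Of 23 glycolysis and transport genes 4 were called lower, also against 8.76%, namely hexokinase Hk2 (-0.39), Tpi1 (-0.25), the lactate carrier Slc16a1 (-0.31) and the amino acid carrier Slc7a5 (-0.37). The median of that list was -0.065, close to that of all genes, but its sign was not stable. The slides gave 0.020 and -0.060, and the fits lacking 1 array gave between -0.083 and 0.017. None of 30 cytosolic ribosomal proteins was called, against 12.3% of all genes, and their median was -0.029. Their summed signal was very high, at 5756 and 4794 with Pam2CSK4 and 5598 and 4791 in TLR2.CD86. Signal this high can be held down by saturation, so the absence of calls is not read as an absence of change.

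**Figure D2:**
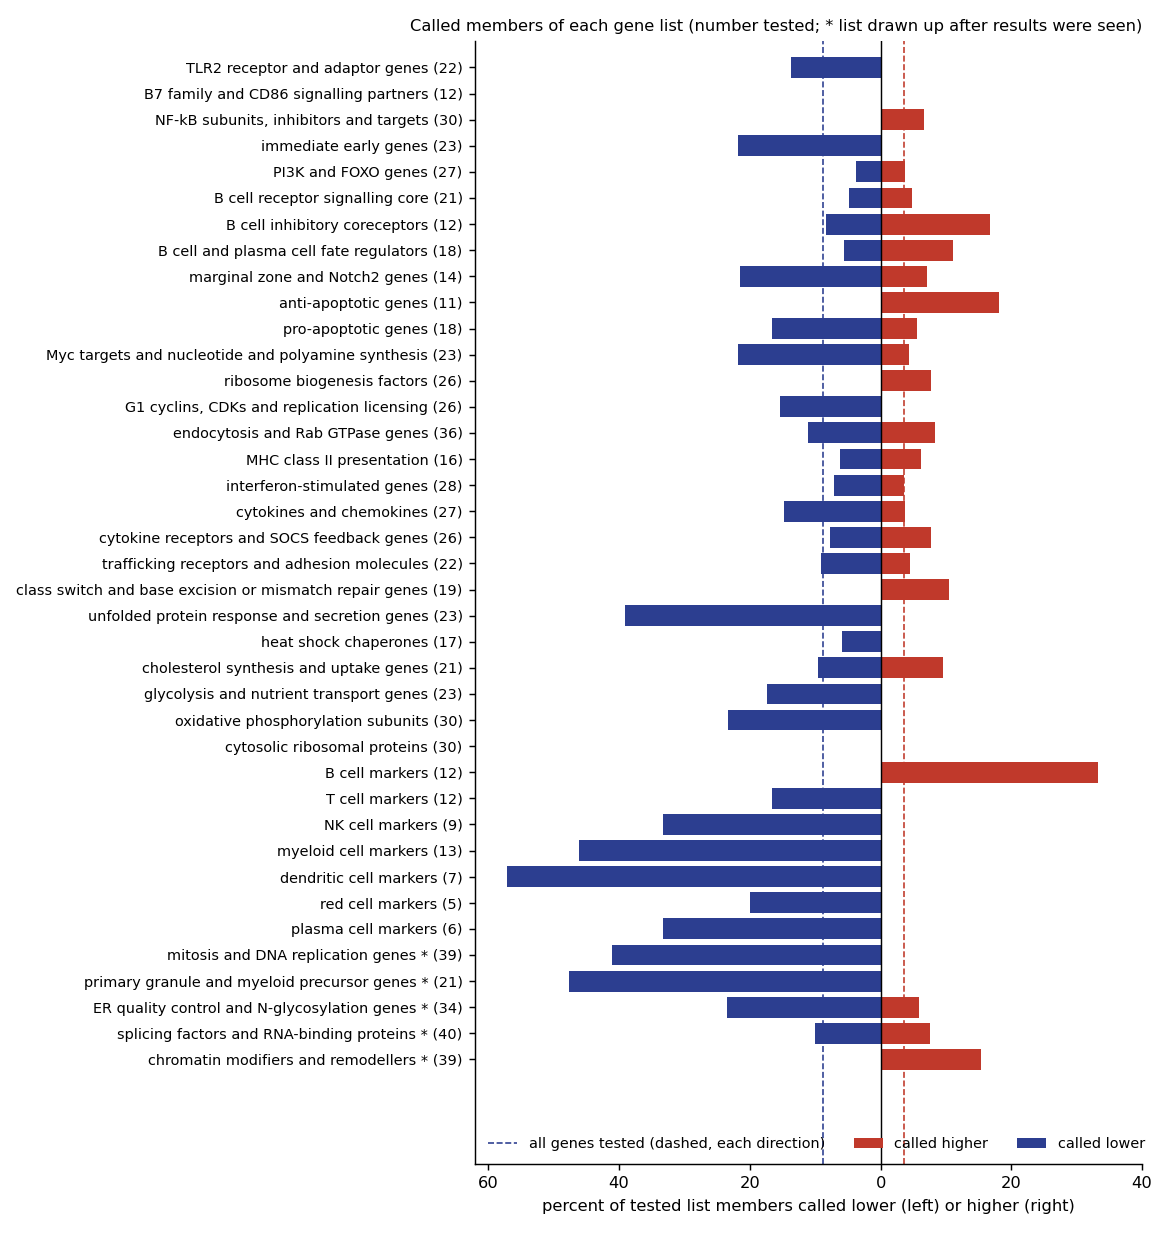
Percent of tested members of each gene list called lower (left, blue) or higher (right, red) in TLR2.CD86 against Pam2CSK4, with the number tested in brackets and dashed lines at the 8.76% lower and 3.53% higher among all genes; asterisks mark lists drawn up after results were seen. Markers of dendritic and myeloid cells, primary granule genes, mitosis genes and UPR genes extend farthest to the left, and B cell markers and anti-apoptotic genes farthest to the right.

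Of 22 TLR2 receptor and adaptor genes 3 were called, all lower, against 8.76% of all genes called lower. They were the co-receptors Cd14 (-0.43 (SE 0.072, adjusted p = 0.0198)) and Cd36 (-0.64 (SE 0.068, adjusted p = 0.00914)) and Ly86, the partner of the receptor RP105 (-0.30 (SE 0.069, adjusted p = 0.0438)). Cd14 and Cd36 are also genes of myeloid cells, whose markers moved the same way. Tlr2 stood at 2.88 and 2.71 with Pam2CSK4 and at 2.70 and 2.46 in TLR2.CD86, a difference of -0.21 (SE 0.061, adjusted p = 0.0771). Tlr6 and Myd88 differed by -0.12 and 0.070 and were not called. Cd86, the target of the antibody, was at 1.55 and 1.38 and 1.54 and 1.21, overlapping, with a difference of -0.093 (SE 0.065, adjusted p = 0.41). None of 12 B7 family genes and CD86 signalling partners was called, against 12.3% of all genes. After quantile normalization 3 of them were called.

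NF-kB genes showed 2 calls among 30, both higher, against 3.53% of all genes called higher. Nfkbid, an atypical nuclear IkB protein, was at 3.55 and 3.18 with Pam2CSK4 and 3.98 and 3.43 in TLR2.CD86, a difference of 0.34 (SE 0.064, adjusted p = 0.0251) with the groups overlapping across slides but not within them. The adhesion molecule Icam1 rose from 1.78 and 1.77 to 2.26 and 2.03 (0.37 (SE 0.068, adjusted p = 0.0251)). The inhibitor Nfkbia was at 7.66 and 7.44 with Pam2CSK4 and 7.68 and 7.45 in TLR2.CD86, overlapping. Levels this high can be held down by saturation, so these values do not show that Nfkbia was unchanged. With saturated probes left out, 28 of the 30 NF-kB genes were tested. Of 23 immediate early genes 5 were called lower and none higher, against 8.76% of all genes called lower, with a median of -0.18. They were the AP-1 genes Fosb (-0.41 (SE 0.064, adjusted p = 0.0169)) and Fosl2 (-0.36), Myc, the ERK phosphatase Dusp6 (-0.26) and Klf6 (-0.30). The second Fosl2 and Klf6 probes differed by -0.14 and -0.063 and were not called.

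Cytokine genes held 4 of 27 lower and 1 higher, against 8.76% and 3.53% of all genes. Il4, a growth and switch factor for B cells, was at 0.24 and -0.22 with Pam2CSK4 and at -0.77 and -1.23 in TLR2.CD86, lower on both arrays, with a difference of -1.01 (SE 0.11, adjusted p = 0.00997). Il12b, the shared subunit of IL-12 and IL-23, fell by 0.65 (SE 0.074, adjusted p = 0.0101), the chemokine Cxcl16 fell by 0.59 (SE 0.051, adjusted p = 0.00659) and Ccl5 fell by 0.26 (SE 0.049, adjusted p = 0.0252). Clcf1, a B cell stimulating cytokine of the IL-6 family, rose from -0.52 and -0.79 to 0.25 and -0.10, without overlap, by 0.73 (SE 0.089, adjusted p = 0.0114). Clcf1 was -1.35 and -1.23 in unstimulated cells, so that both stimuli were above the resting level. Il6 differed by -0.44 (SE 0.12, adjusted p = 0.066), Tnf by 0.045 (SE 0.064, adjusted p = 0.718) and Il10 by -0.18 (SE 0.057, adjusted p = 0.0966), and none was called. Outside the list, the TNF family ligands Tnfsf4 (OX40 ligand) and Tnfsf13 (APRIL) had differences of -0.94 (SE 0.19, adjusted p = 0.0318) and -0.93 (SE 0.17, adjusted p = 0.0234). Over the alternatives Tnfsf4 ranged from -1.09 to -0.40 and Tnfsf13 from -1.13 to -0.59. Among 26 cytokine receptors and feedback genes, Il2rg, the common gamma chain, rose by 0.33 (SE 0.078, adjusted p = 0.0442) and Il21r by 0.24 (SE 0.058, adjusted p = 0.0493), while Cish and Socs6, which restrain cytokine signals, had differences of -0.29 and -0.29. That list held 2 higher and 2 lower calls, against 3.53% and 8.76% of all genes. Of 28 interferon-stimulated genes 2 were called lower and 1 higher, against 8.76% and 3.53% of all genes. The lower ones were Rsad2 and Usp18 (-0.40 and -0.46), and the RNA sensor Ddx58 rose (0.45).

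The called B cell markers were all higher, by small amounts, while called genes of other B cell lists went in both directions. Cd79a, a signalling chain of the B cell receptor, was 1.08 and 0.92 with Pam2CSK4 and 1.502 and 1.24 in TLR2.CD86 (0.37 (SE 0.060, adjusted p = 0.0178)). Pax5, which holds B cell identity, rose by 0.35 (SE 0.073, adjusted p = 0.0333), and the inhibitory lectin Cd22 by 0.25 (SE 0.055, adjusted p = 0.0383). Fcer2a (CD23) rose by 0.24 (SE 0.052, adjusted p = 0.0363), from 2.74 and 2.42 to 2.97 and 2.67, against 2.28 and 2.26 in unstimulated cells. Cr2 (CD21/35) was at 2.68 and 2.43 and 2.45 and 2.28, with a difference of -0.19 (SE 0.055, adjusted p = 0.073) that missed the threshold, and its second probe differed by 0.25. Ciita, the master regulator of MHC class II, rose by 0.26 (SE 0.054, adjusted p = 0.0342), while H2-DMb1, a peptide-loading chain, fell by 0.26 (SE 0.052, adjusted p = 0.029). Id2, an inhibitor of E proteins that B cells normally keep low, fell by 0.68 (SE 0.063, adjusted p = 0.0074). Of 14 marginal zone and Notch2 genes 3 were called lower and Fcer2a higher, against 8.76% and 3.53% of all genes. Those lower were Cd1d1 and Cd9, at -0.46 and -0.35, and Cd36. The list median was -0.053, near that of all genes, but -0.097 on slide 1 and -0.032 on slide 2. Fits lacking 1 array put this median between -0.10 and -0.035. Among receptor signalling genes Malt1 fell by 0.27, and in the PI3K list Inpp4b rose by 0.34 while Tsc22d3, a FOXO target, fell by 0.29. Gapt was not well above background on any of the 4 arrays, so no fold is given. Cd40 and Il2ra differed by -0.026 (SE 0.066, adjusted p = 0.856) and -0.033 (SE 0.098, adjusted p = 0.884), with 0.24 and 0.30 for the other Cd40 probes and a median of 0.17 over the Il2ra probes, although Il2ra rose with Pam2CSK4 itself, from -1.85 and -1.82 in unstimulated cells to -0.15 and 0.025.

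The kinases Pim1 and Pim2, which promote growth and survival, were the 2 called of 11 anti-apoptotic genes, both higher, against 3.53% of all genes called higher. Pim1 rose from 4.22 and 3.92 to 4.55 and 4.23 (0.32 (SE 0.072, adjusted p = 0.0402)) and Pim2 by 0.26 (SE 0.056, adjusted p = 0.0362). Bcl2l1 was at 1.82 and 1.77 and 1.98 and 1.75, overlapping (0.067 (SE 0.098, adjusted p = 0.724)). Of 18 pro-apoptotic genes 3 were called lower and 1 higher, against 8.76% and 3.53% of all genes. Pmaip1 (Noxa) fell by 0.42 (SE 0.067, adjusted p = 0.0178), the ATP-gated channel P2rx7 fell by 0.43 (SE 0.070, adjusted p = 0.0186) and Bak1 fell by 0.28 (SE 0.059, adjusted p = 0.0344). The Bak1 and P2rx7 values are uncertain, since the medians over their probes are 0.17 and -0.14. Trp53 rose from 2.30 and 2.24 to 2.88 and 2.68 (0.51 (SE 0.062, adjusted p = 0.0114)), without overlap, but its second probe differed by -0.20 (SE 0.19, adjusted p = 0.544). Apaf1 and Dock1 differed by -0.28 (SE 0.071, adjusted p = 0.0539) and -0.34 (SE 0.094, adjusted p = 0.071), and Ddit4 by -0.046 (SE 0.055, adjusted p = 0.648). Gata6, measured near background, gave -4.25 and -2.39 and -3.47 and -2.98, which settle no direction.

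Trafficking and repair genes changed singly. Itgb7, an integrin chain for gut homing, and Rgs1, which damps chemokine receptors, had differences of -0.34 and -0.33. In the class switch and repair list 2 of 19 were called, both higher, against 3.53% of all genes called higher. These were Rif1 (0.56 (SE 0.053, adjusted p = 0.0074)) and Trp53bp1 (0.36 (SE 0.064, adjusted p = 0.0223)), which act together to protect DNA ends. The other Rif1 probe differed by -0.33 (SE 0.15, adjusted p = 0.21). Nolc1 and Rrp12 of ribosome biogenesis rose by 0.25 and 0.50. In cholesterol synthesis Fdft1 rose by 0.38, Idi1 and Dhcr7 had differences of -0.51 and -0.37, although the second Dhcr7 probe differed by 0.33, and Lss was at least 1.30-fold higher, being well above background only in TLR2.CD86. The only heat shock chaperone called of 17 was Hsph1 (-0.23), against 8.76% of all genes called lower.

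Among the genes with the largest rises, several were dim. Kcnj6, an inward rectifier potassium channel, rose by 1.26 (SE 0.15, adjusted p = 0.0109), Matn4, a matrix protein, by 1.15 (SE 0.22, adjusted p = 0.0268, and between 0.74 and 1.56 when 1 array was left out), and Mtap7d2 by 1.13 (SE 0.16, adjusted p = 0.0141). Bcl9l, a coactivator of beta-catenin, rose from -2.11 and -2.26 to -1.16 and -1.14 (1.03 (SE 0.069, adjusted p = 0.00313)) without overlap and passed the threshold in 13 of 15 alternatives. Tle6, of the Groucho corepressor family, rose by 0.90 (SE 0.095, adjusted p = 0.00921), and the ETS factor Etv4 by 0.88 (SE 0.081, adjusted p = 0.00731). The adaptor Sh3bp2 and the DNA repair helicase Fancm rose by 0.89 and 0.79. The second Fancm probe differed by 0.18 and was not called. Mc1r, Dlgap1, Fhl3, Zfp445 and Cadm4 had differences between 0.81 and 1.07. The smallest values over the alternatives were 0.80 for Kcnj6, 0.61 for Matn4, 0.64 for Mtap7d2, 0.45 for Etv4 and 0.47 for Sh3bp2. Those of Mc1r, Dlgap1, Fhl3 and Cadm4 were between 0.40 and 0.52. Plagl2, a zinc finger factor, was at 2.20 and 1.90 with Pam2CSK4, 2.93 and 2.76 in TLR2.CD86 and 1.43 and 1.29 with anti-CD86 alone. It was highest in TLR2.CD86, and its difference was 0.79 (SE 0.058, adjusted p = 0.00405).

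Med1, a subunit of the Mediator complex that links transcription factors to RNA polymerase II, depended on the probe. The first 30 bases of its 3 probes are shown because they disagree.
Med1, probe that rose: ttttgaggaattttccaagcatcttaaggg
Med1, second probe: gtggctttggggggtatacatttgttttca
Med1, last probe: tttgtctcggagtcacgttttggagagaca

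The first of them rose from -0.082 and -0.26 with Pam2CSK4 to 1.01 and 0.86 in TLR2.CD86 (1.11 (SE 0.062, adjusted p = 0.00177)). With anti-CD86 alone it was at -1.67 and -1.66, below -0.47 and -0.48 in unstimulated cells. The remaining Med1 probes differed by 0.041 and -0.22. The rise was seen with 1 of its 3 probes, the dimmest, which alone carries this name on the array.

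Chromatin and RNA-binding genes gave a mixed picture. Both lists were drawn up after results were seen. Of 39 chromatin modifiers 6 were called higher, against 3.53% of all genes, and none lower, with a median of 0.068 that turned to -0.023 after scaling to the array median. The histone chaperone Hira rose by 0.78 (SE 0.095, adjusted p = 0.0114) and the arginine methyltransferase Prmt1 by 0.73 (SE 0.061, adjusted p = 0.00589), followed by Crebbp (0.53), Chd1 (0.34), Brd8 (0.34) and Kmt2a (0.26). The median over the Hira probes was 0.22. Of 40 splicing and RNA-binding genes 3 were called higher and 4 lower, against 3.53% and 8.76% of all genes. Taf15, an RNA-binding protein, fell by 0.36 (SE 0.061, adjusted p = 0.0197). Srrm2 and U2af1 rose by 0.36 and 0.43, and Luc7l2, U2af2 and Hnrnpa1 had differences of -0.43, -0.41 and -0.39.

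**Figure D3:**
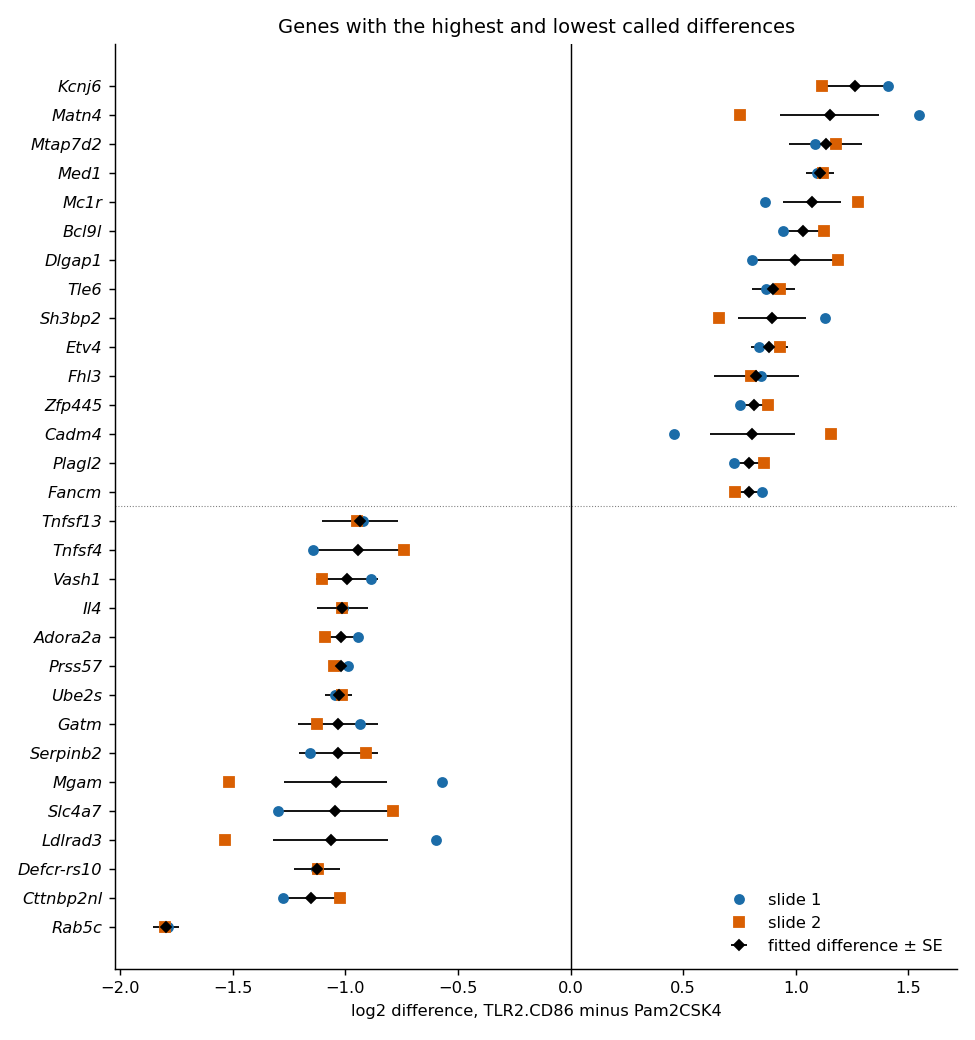
Log2 difference of TLR2.CD86 minus Pam2CSK4 for the 15 highest and 15 lowest called genes, with circles for slide 1, squares for slide 2 and diamonds with bars for the fitted difference and its standard error. Rab5c stands apart at -1.80, while Ldlrad3 and Mgam differ widely between the slides.

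Among the lowest genes, Adora2a, an adenosine receptor, was 2.12 and 1.84 with Pam2CSK4 and 1.17 and 0.75 in TLR2.CD86, without overlap (-1.02 (SE 0.071, adjusted p = 0.00336)), and the median over its probes was -0.57. Vash1, an angiogenesis inhibitor, fell by 0.99 (SE 0.14, adjusted p = 0.0135), from 0.069 and 1.02 to -0.82 and -0.088, without overlap but far apart between the slides. Serpinb2, a protease inhibitor, rose with Pam2CSK4 from -4.51 and -4.25 to -2.53 and -2.93 and was at -3.69 and -3.84 in TLR2.CD86 (-1.03 (SE 0.18, adjusted p = 0.0206)). Cttnbp2nl, Defcr-rs10, Ldlrad3, Mgam and Gatm were dim and had differences between -1.15 and -1.03. Their smallest differences over the alternatives were -0.48, -0.47, -0.46, -0.61 and -0.52, in that order. For Serpinb2 the smallest was -0.38. Without 1 array Ldlrad3 ranged from -1.54 to -0.59. For Slc4a7, a bicarbonate transporter, the called probe differed by -1.30 and -0.79 on the slides (-1.04 (SE 0.23, adjusted p = 0.0389)), but its other probes differed by 0.16 and -0.065.

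Some genes of granulocyte precursors were lower. In a list of 21 primary granule and precursor genes, drawn up after results were seen, 10 were called lower and none higher, against 8.76% of all genes called lower, with a median of -0.24. Il4, given above with the cytokines, is 1 of the 10, and Mpo and Elane are also among the myeloid markers. Another 4 members were positive on both slides. Prss57, a granule serine protease, was at 0.27 and 0.12 with Pam2CSK4 and -0.72 and -0.93 in TLR2.CD86 (-1.02 (SE 0.054, adjusted p = 0.00152)). Ms4a3 fell by 0.89 (SE 0.086, adjusted p = 0.00807), cathepsin G (Ctsg) fell by 0.77 (SE 0.068, adjusted p = 0.00674), Elane fell by 0.64 (SE 0.080, adjusted p = 0.0115) and Mpo, myeloperoxidase, from 6.70 and 6.38 to 6.10 and 5.71 (-0.63 (SE 0.053, adjusted p = 0.00598)). Cd34, Prtn3, Kit and Camp had differences of -0.64, -0.47, -0.37 and -0.24. In unstimulated cells Mpo was 7.24 and 7.27, above every array of the stimulated groups described here. Of the dendritic cell markers Clec9a fell by 0.72 (SE 0.062, adjusted p = 0.00648) and Batf3 fell by 0.69 (SE 0.092, adjusted p = 0.0126), and Flt3 and Itgax had differences of -0.63 and -0.25. Of NK and T cell markers Nkg7, Gzma and Gzmb had differences of -0.48, -0.38 and -0.27, and Cd8a and Thy1 of -0.44 and -0.40. The second Nkg7 and Thy1 probes differed by -0.19 and 0.074 and were not called. The red cell marker Car1 fell by 0.48. Summed signal of the 13 myeloid markers was 469 and 415 with Pam2CSK4 and 415 and 364 in TLR2.CD86.

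Called noncoding RNA probes were mostly higher in the fit over 12 arrays. Of 8427 tested, 824 were called higher (9.78%) and 80 lower (0.949%), with a median of 0.11. The split in calls rests on the fit, with 3 higher and 11 lower without the slide term, 27 and 17 under median scaling, 12 and 13 without a filter on dim probes and 0 of either with the 4 arrays alone. Of the other 23172 probes, 979 were called higher (4.22%) and 1579 lower (6.81%), with a median of -0.031. The median of the noncoding probes was 0.11 on slide 1 and 0.12 on slide 2, and their median stayed above that of the other probes by 0.084 to 0.25 in all alternatives. Noncoding probes are dimmer on the whole, with a median level over the 12 arrays of -1.65 against 0.44. The split was also seen among bright probes. In the brightest of 5 equal bins by level, 127 of 874 noncoding probes were called higher and 15 lower, against 99 and 429 of 5446 others. The part of priming, strand or probe design in this split was not tested.

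In contrast, a family of noncoding probes fell strongly in TLR2.CD86. From general knowledge its letters resemble the mouse major (gamma) satellite, a tandem repeat of the chromatin around centromeres that is normally kept silent as heterochromatin, but no repeat annotation was used to check this. The family was noticed after values were seen. It was then defined by sequence alone, as all probes joined by shared runs of 16 bases on either strand, starting from 1 probe (u197898). Of its 21 probes, all tested, 15 were called lower and none higher, against 5.25% of all probes called lower. The groups did not overlap for any of the 15, against 30.9% of all probes and 2817 of the 3462 called probes. Called probes mostly do not overlap, so this adds little to the calls. The median difference was -1.08, or -1.11 and -1.07 on the slides.

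The steepest falls were in the 3 probes of the orientation opposite to the starting probe. Probe u205730 was at 4.70 and 4.71 with Pam2CSK4 and at 1.70 and 1.97 in TLR2.CD86, a 7.30-fold lower signal (-2.87 (SE 0.10, adjusted p = 0.000231)). Both TLR2.CD86 arrays were also far below the unstimulated arrays at 4.49 and 4.53 and the anti-CD86 arrays at 3.94 and 4.03. Probes u201781 and u192892 had differences of -2.80 (SE 0.090, adjusted p = 0.000147) and -2.73 (SE 0.077, adjusted p = 0.000147). In the orientation of the starting probe, u192890 fell from 2.29 and 2.55 to 0.51 and 0.94 (-1.69 (SE 0.087, adjusted p = 0.00152)), and the weakest called member, u201777, fell by 0.91. The 6 members that were not called ranged from -1.65 (u185472, a dim probe) to 0.45 (u201770). The probes share sequence and may bind the same RNA, so they are not independent of each other.

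The fall was larger with Pam2CSK4 than without it for several members. With anti-CD86 alone 7 of the 21 were called lower and none higher, against 15.5% of all probes called lower, with a median difference of -0.25 from unstimulated cells. The difference of the differences was below 0 and called for 11 of the 21, where 0.234% of all probes were called. For u205730 it was -2.32 (adjusted p = 0.00616). The median level of the family was 2.82 and 2.81 in unstimulated cells, 3.09 and 3.16 with Pam2CSK4, 2.63 and 2.88 with anti-CD86, and 1.61 and 1.86 in TLR2.CD86. In the remaining conditions it was 4.05 and 4.21 with anti-CD40 and 0.63 and 0.64 with anti-CD40 and Pam2CSK4, both of whose arrays lay on slide 1. The family was thus lowest in both combinations of an antibody with Pam2CSK4. A further probe, u180979, which shares no such run with the family, went from -0.10 and 0.024 with Pam2CSK4 to -2.96 and -2.98 (-2.93 (SE 0.091, adjusted p = 0.000147)). Of the 21, between 10 and 16 were called lower in every alternative but the fit of 4 arrays alone, where no probe was called.

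**Figure D4:**
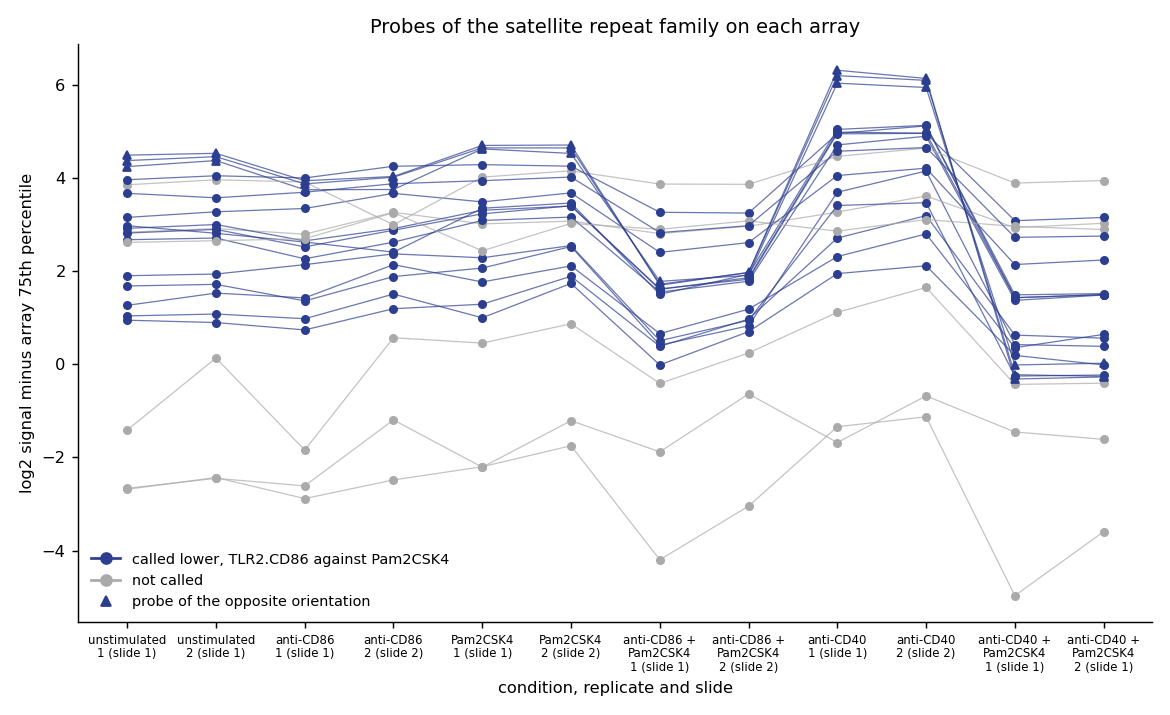
Levels of the 21 satellite repeat probes on all 12 arrays (log2 signal minus the array 75th percentile), 1 line per probe, with blue for the 15 called lower in TLR2.CD86 against Pam2CSK4, grey for the 6 not called and triangles for the 3 probes of the opposite orientation. The blue lines drop together in TLR2.CD86 and in anti-CD40 with Pam2CSK4 and rise in anti-CD40 alone.

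One bright noncoding probe rose. From general knowledge the letters of u182032 resemble the small subunit ribosomal RNA, which was not checked against an annotation. Its level was 1.40 and 1.63 in unstimulated cells, 4.25 and 4.75 with Pam2CSK4, 5.68 and 6.26 with anti-CD86 and 5.95 and 6.61 in TLR2.CD86. The TLR2.CD86 arrays were the highest of their slide, 3.44-fold above Pam2CSK4 (1.78 (SE 0.10, adjusted p = 0.00177)). The probes that the array names Rn18s, for the small subunit ribosomal RNA, differed by 0.016 and 0.27 and were not called. A probe named Ighg, for an immunoglobulin gamma constant region, fell from 0.20 and 0.042 to -1.04 and -1.03 (-1.16 (SE 0.078, adjusted p = 0.00313)), while unstimulated cells had 0.14 and 0.21. Gamma constant genes are near-identical copies, so the subclass is uncertain, and this probe was singled out after its value was seen.

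Genes seen on one side only have a bound rather than a fold. For 126 genes every probe was not well above background with Pam2CSK4 while both TLR2.CD86 arrays measured it, and for 6 the reverse held. More spots were well above background in TLR2.CD86 on both slides, 49.9% against 48.9% on slide 1 and 55.8% against 48.7% on slide 2. The largest bounds were at least 4.44-fold higher for Il34, a ligand of the CSF1 receptor (adjusted p = 0.0868), and at least 3.44-fold for Mdfi (adjusted p = 0.144). Il34 was measured at -3.40 on slide 1 and 0.44 on slide 2, so the slides differ greatly, as they did for Mdfi, at -3.17 and -0.53. RP23-303F24.3, Hivep3 and Krtap4-1 had bounds between 1.92 and 2.35. In the lower direction, the Fc receptor Fcgr1 was at least 2.33-fold lower and Dnajc6, an uncoating factor of clathrin vesicles, at least 1.71-fold lower. The adjusted p-values of the 10 genes given here, of which Dnajc6 alone was called, use readings not well above background on 1 side. No conclusion is drawn from them. Defa-rs4, Afm and Uevld were lower by at least 1.68-fold to 1.79-fold.

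The anti-CD86 difference with Pam2CSK4 can be set beside that without it. Both comparisons use different arrays but share slides. Against unstimulated cells, anti-CD86 alone had 8991 called probes (28.5%). Of the 3462 probes called with Pam2CSK4, 2582 (74.6%) were called in the same direction without it, which is 28.7% of the 8991, and 45 were called in the opposite direction. The same sign was found for 94.6% of the 3462 and for 71.3% of all probes. Mpo fell by 0.63 with Pam2CSK4 and fell by 0.62 without it, Hsp90b1 had differences of -0.38 and -0.44, and Clcf1 rose by 0.73 and 1.40. For these genes the difference of the differences was not called.

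The difference of the differences was called for 74 probes (0.234%), 41 with a value above 0 and 33 below, and 48 of them were also called for anti-CD86 added to Pam2CSK4. Genes that met the naming rule were of several kinds. Med1 and Plagl2 rose by 1.11 and 0.79 with Pam2CSK4 and differed by -1.15 and -0.091 without it. Rab5c and Ube2s fell more strongly with it, and Pygo2, of the beta-catenin complex, rose less with it (0.42) than without it (1.18). Lmnb1, the B-type lamin of the nuclear envelope, was 3.51 and 3.33 with anti-CD86 alone against 2.84 and 2.84 unstimulated, and 2.53 and 2.25 with Pam2CSK4 against 2.34 and 1.97 in TLR2.CD86. Rmrp, the RNA of RNase MRP, was 3.22 and 2.84 with anti-CD86 alone against 4.55 and 4.52 unstimulated, while it differed by 0.11 (SE 0.058, adjusted p = 0.253) when Pam2CSK4 was present. Camk1d rose by 1.31 without Pam2CSK4 and differed by 0.091 (SE 0.095, adjusted p = 0.598) with it, by 1 of its 3 probes. Tm4sf4, Cpxm2 and Es1 had differences of -1.87, -2.32 and -1.32 without Pam2CSK4 and differed by 0.33, -0.42 and -0.36 with it. Tests of these values are given with the results for a closer look.

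**Figure D5:**
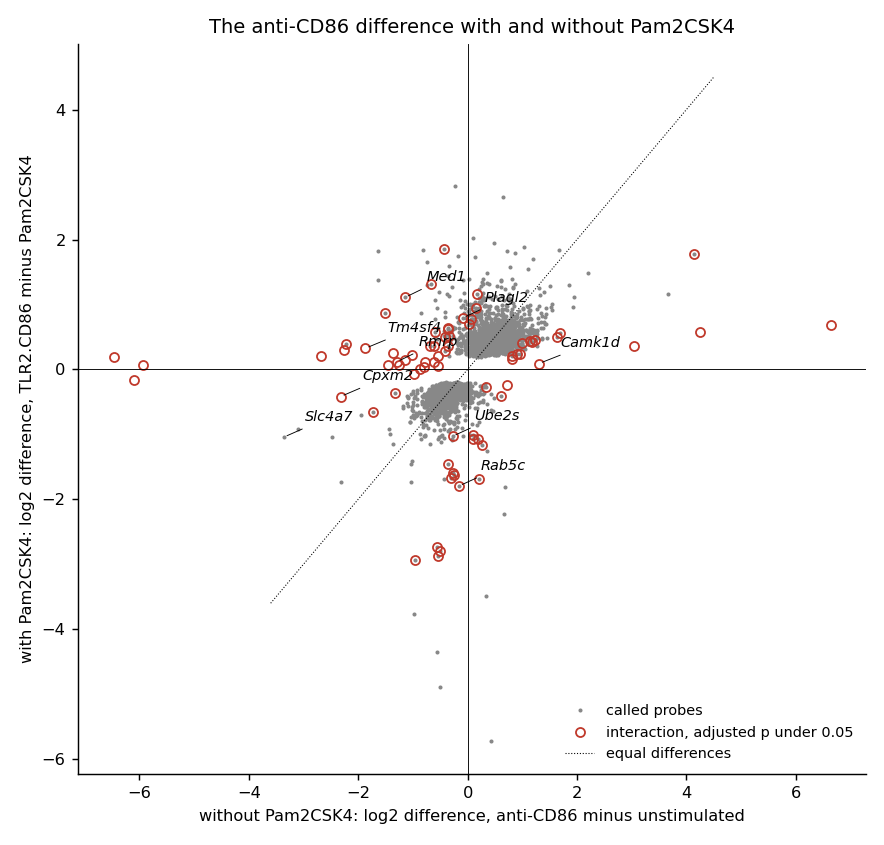
Log2 difference made by anti-CD86 with Pam2CSK4 (vertical) against that without it (horizontal), with grey points for probes called with Pam2CSK4, red circles for the 74 probes whose differences differ (adjusted p under 0.05) and a dotted line of equality. Most grey points share their sign on both axes, while Rab5c and Med1 lie far from the line.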

How the data were processed

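Agilent 1-colour mouse arrays were scanned and quantified by the authors with Feature Extraction 10.5.1.1, and the deposited intensity values are its background-subtracted processed signals. A second deposited file of log2 values equals log2 of those signals minus the array 75th percentile up to a constant per array (its scale, centring and direction are thereby known). Here each array was scaled to its 75th percentile, outlier spots were left out, and 31599 of 61307 probes, namely probes that Feature Extraction marked well above background in each array of some condition, were tested. Differences came from limma 3.58.1 (R 4.3.3) over all 12 arrays with condition and slide as terms, with Benjamini-Hochberg adjustment over all probes. The study's methods name a one-way test, used as an alternative. Slide 1 held 8 arrays and slide 2 held 4. For the 4 arrays compared the replicate number is also the slide. Python 3.11.15 (pandas 2.3.3, numpy 2.4.6, matplotlib 3.10.9) was used for summaries. The fit was also run on simulated data. With the slide term it recovered more of the changed probes than without it, and it also made some false calls. The simulated arrays were given the slide effects of the real probes. The better recovery was therefore built in, and it does not decide between the fits.

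Named genes are the 15 highest and 15 lowest called genes that were above background and unsaturated on all 4 arrays with the same sign on both slides, up to 5 bounds per direction, up to 10 genes with a called interaction, called members of the gene lists (beyond the 4 largest of a list, these were chosen after their values were seen), and genes named in the study's text. Probes with an accession in the RefSeq table (28136 of 40628 that are not noncoding) took its current symbol (GRCm38.p6). Array coordinates were not used here. The members and the lists (27 pathway lists, 7 marker lists and 5 added ones) were chosen with earlier results of these data known. Alternatives were other scalings, background correction, filters, fits and the removal of each array. Some genes are not reported here.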

Additional observations from a re-analysis of the deposited data

Results flagged for a closer look

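In 10 genes chosen by the naming rule, the difference made by anti-CD86 was not the same with and without Pam2CSK4, by the test of that difference itself in limma (2 arrays per condition). Each value here is the log2 difference with Pam2CSK4 minus that without it. Above 0 were Med1 at 2.25 (adjusted p = 0.00332), Tm4sf4 at 2.19 (adjusted p = 0.0408), Cpxm2 at 1.90 (adjusted p = 0.0202), Rmrp at 1.41 (adjusted p = 0.00499), Es1 at 0.96 (adjusted p = 0.0433) and Plagl2 at 0.88 (adjusted p = 0.0269). The Med1 value rests on 1 of 3 probes, the others being at -0.030 and 0.16, and the second Es1 probe is at 0.48, none of them called. Below 0 were Rab5c at -1.64 (adjusted p = 0.00401), Camk1d at -1.22 (adjusted p = 0.0408), Lmnb1 at -0.97 (adjusted p = 0.023) and Pygo2 at -0.76 (adjusted p = 0.0324). The other Camk1d probes are at -0.18 and 0.12 and were not called. Both unstimulated arrays lie on slide 1, so these values use the slide term of the fit.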

How the results depend on the processing

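The number of called probes (3462) stayed within 1.5 times under quantile normalization, normexp background correction, the authors' table, probes above background on all arrays and removal of saturated probes (3437 to 4584). It was 20 without the slide term, 53 with the replicate number as a block in place of the slide, 73 under median scaling, 35 without a filter on dim probes, 93 by the methods' one-way test after adjustment (3647 at an unadjusted p under 0.05) and 0 with the 4 arrays alone (7613 unadjusted). Leaving out 1 array gave 87 to 138: 138 without Pam2CSK4 replicate 1, 88 without replicate 2, 136 without TLR2.CD86 replicate 1 and 87 without replicate 2. Probes whose anti-CD86 difference depends on Pam2CSK4 (74) numbered 6 without the slide term, 10 with the replicate block, 141 after quantile normalization, 159 after normexp, 0 without a filter (4081 unadjusted), 274 among probes above background on all arrays and 11 to 70 without 1 array. List members called, over the pathway lists (107 of 630), numbered 1 without the slide term, with the replicate block, under median scaling or without a filter, 4 by the one-way test, 0 with 4 arrays (171 unadjusted) and 1 to 4 without 1 array. The causes of these changes were not tested. Of 137 named genes that were called, 135 kept their direction in every alternative, and Bak1 and Eea1 did not. Log2 differences changed sign for Bcl2l1 (-0.024) and Pacsin2 (-0.013) under median scaling (which lowers every difference by the same amount, so the uncalled Tnf, Ddit3 and Myd88 turn too), for Cd40 (0.039) and Ddit4 (0.0097) after quantile normalization and for Cd40 (0.054) and Gata6 (-0.073) after normexp. Leaving out 1 array gave ranges that cross 0 for Bcl2l1 (-0.018 to 0.15), Camk1d (-0.031 to 0.21), Cd40 (-0.12 to 0.068), Gata6 (-0.68 to 0.87) and Il2ra (-0.12 to 0.050). The median over a gene's probes changed the value of most called genes with several probes, with 14 of 46 within the spread of their main value, 30 moved and 2 reversed. It brought Adora2a to -0.57, Ccne1 to -0.17, Csf1r to -0.30, Dhcr7 to -0.018, Es1 to -0.61, Fancm to 0.49, Hira to 0.22, Hsp90b1 to -0.12, Klf6 to -0.18, Med1 to 0.041, P2rx7 to -0.14, Rif1 to 0.12, Slc4a7 to -0.065, Thy1 to -0.16 and Trp53 to 0.16. By it Bak1 was 0.17, Cd40 0.24, Cr2 0.029, Eea1 -0.094 and Il2ra 0.17. Arrays of 1 replicate number, which is the slide, deviated together (r = 0.81 over 25968 probes). With 2 arrays per condition, signal near background limits the dim genes.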
